A study of Mus musculus with 12 samples.

Results

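A group of 10 cytokine signalling genes was followed in a mouse kidney epithelial cell line with and without the polycystic kidney disease genes Pkd1 and Pkd2. They are 8 receptor chains (Csf2ra, Csf2rb, Il4ra, Il13ra1, Il6st, Il6ra, Osmr and Lifr), the transcription factor Stat3 and its feedback inhibitor Socs3. The 10 genes were picked by name from the 47642 genes of the table, because Csf2ra was higher in both knockouts. The level of Csf2ra against wild-type is therefore described here and not tested. All 10 genes have a row in the table, and 9 of them passed a filter on low values, which asked for an average over the libraries of 1 normalized count or more. The tenth, Csf2rb, was at 0 throughout.

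The cells were mIMCD3, an immortalized line from the inner medullary collecting duct of a mouse that carried the SV40 early region. All 3 genotypes share this origin and its transgene. Wild-type (Wt) cells were compared with 1 Pkd1-/- clone, in which CRISPR removed nearly the whole gene, and 1 Pkd2-/- clone, in which TALENs removed an internal part of the gene. No cytokine treatment is given in the labels. Each genotype gave 4 libraries from separate dishes, taken 4 days after full confluency, so the spread between libraries does not cover differences between clones, and a clone and its genotype cannot be told apart.

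Type I cytokine receptors have no kinase of their own. A ligand brings receptor chains together, Janus kinases bound to the chains phosphorylate them, and STAT factors dock, become phosphorylated and enter the nucleus. The chain gp130, encoded by Il6st, is shared: with Il6ra it binds interleukin-6, with Lifr it binds LIF, and with Osmr it binds oncostatin M. Il4ra pairs with Il13ra1 in the type II receptor for interleukin-4 and interleukin-13. Csf2ra binds GM-CSF and signals only with the beta common chain Csf2rb. Socs3 is induced by STAT3 and binds gp130, which ends the signal. In kidney tubules, STAT3 and its targets are known for their activity in injury and in cystic disease.

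Values are normalized counts: the authors divided the reads counted on each gene by a size factor of the library and rounded to whole numbers. Total normalized counts were 25966273 to 28027792 per library, and an estimated 23245860 to 30352415 reads per library fell on genes. Correlations between libraries of log2(normalized count + 1) over genes were 0.9914 to 0.994 within a genotype and 0.9275 to 0.9659 between genotypes, and no library stood apart from its group. Pkd1 was at 682 to 883 normalized counts in wild-type cells, 30 to 49 in Pkd1-/- and 1057 to 1492 in Pkd2-/- cells. Pkd2 was at 3438 to 4467 normalized counts in wild-type cells, 2545 to 2858 in Pkd1-/- and 3855 to 4135 in Pkd2-/- cells, and a count over the whole gene does not check a deletion of some of its exons.

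The label of the cells was checked against marker genes. Krt18, Epcam and Cdh1 (epithelium), Pax2 and Pax8 (nephric lineage) and Hoxb7 (ureteric bud lineage) were detected in all 12 libraries. Of the 12 collecting duct markers, 10 exceeded 3 normalized counts in a wild-type library. Among the 10 is the water channel Aqp3, with a median of 0 and a highest value of 6 in wild-type libraries. The list summed to 67535 to 75567 in wild-type cells, 68452 to 70331 in Pkd1-/- and 75202 to 78580 in Pkd2-/- cells. Most of each sum came from the general epithelial genes Krt8, Krt18, Cdh1 and Epcam. The water channel Aqp2, which defines principal cells of the collecting duct, was at 0 in every library, and the vasopressin receptor Avpr2 did not exceed 1 normalized count. Of 12 leukocyte markers, 4 (Adgre1, Itgam, Tyrobp and Laptm5) were at 0 in every library and Ptprc, which encodes CD45, reached at most 5. The summed level of that list was 1568 to 1765 normalized counts in wild-type cells, 1085 to 1191 in Pkd1-/- and 1257 to 1447 in Pkd2-/- cells, nearly all of it from Csf1r and Cd14. Intercalated cell markers summed to 29 to 82 in wild-type cells, 437 to 547 in Pkd1-/- and 3 to 5 in Pkd2-/- cells. Of these 5 genes, Atp6v1b1 made up nearly all of the Pkd1-/- sum, and Foxi1 was at 0 throughout. Fibroblast markers summed to 29 to 55, 89 to 103 and 15 to 97, and endothelial markers to at most 10. The part of these differences in the results that follow was not tested. In RNA from whole dishes, fewer cells that express a gene and less RNA per cell cannot be told apart.

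The sequence before a RefSeq transcription start is shown for 3 genes. They are Csf2ra, which the selection rests on, Socs3, the feedback inhibitor, and Lifr, whose difference was the largest among the group's tested genes. The stretches were taken from RefSeq on GRCm38.p6 and cut so that they lie in no GENCODE exon. RefSeq windows of 250 bases before to 50 bases after a start were found for 9 of the 10 genes, 10 windows in all since Lifr has 2. Positions are counted from the start, and the base just before it is -1. Capitals mark a match to a cyclic AMP response element (TGACGTCA, a palindrome) or to a STAT element (TTCNNNGAA, also a palindrome apart from its middle). The minus strand of chromosome 19 carries Csf2ra (chr19:61228430-61228668, positions -250 to -12), and Socs3 is on the minus strand of chromosome 11 (chr11:117969452-117969616, positions -250 to -86). The stretches of Lifr lie on the plus strand of chromosome 15, at chr15:7129322-7129558 (positions -250 to -14) and at chr15:7140292-7140541 (positions -250 to -1). As GENCODE annotates the genes, the Socs3 stretch and both Lifr stretches lie inside the gene, outside its exons. That of Csf2ra lies just before the gene.
Csf2ra: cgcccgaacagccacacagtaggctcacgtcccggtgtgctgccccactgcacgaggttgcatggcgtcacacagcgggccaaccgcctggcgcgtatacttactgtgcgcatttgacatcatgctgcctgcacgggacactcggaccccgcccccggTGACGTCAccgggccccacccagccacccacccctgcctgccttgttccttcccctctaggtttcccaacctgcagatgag
Socs3: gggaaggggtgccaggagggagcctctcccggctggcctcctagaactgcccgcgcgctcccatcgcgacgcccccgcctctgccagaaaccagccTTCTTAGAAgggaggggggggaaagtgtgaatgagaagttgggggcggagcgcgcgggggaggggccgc
Lifr, first start: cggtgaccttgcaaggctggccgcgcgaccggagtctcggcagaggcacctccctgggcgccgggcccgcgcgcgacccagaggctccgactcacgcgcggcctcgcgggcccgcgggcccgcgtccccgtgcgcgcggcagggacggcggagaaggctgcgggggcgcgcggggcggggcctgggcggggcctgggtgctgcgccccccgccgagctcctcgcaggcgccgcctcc
Lifr, second start: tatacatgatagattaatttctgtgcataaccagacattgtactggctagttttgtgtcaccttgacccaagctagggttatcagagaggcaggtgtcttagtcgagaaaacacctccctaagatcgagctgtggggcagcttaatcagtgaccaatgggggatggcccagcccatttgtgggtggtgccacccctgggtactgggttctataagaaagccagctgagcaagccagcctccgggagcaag

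The match in Csf2ra begins at position -92, and 1.79% of all 32851 RefSeq windows hold TGACGTCA. Socs3 has its STAT element at position -154, and TTCNNNGAA occurs in 8.30% of windows. The AP-1 element TGANTCA, searched on both strands, occurs in 7.81% of windows and among these genes only in that of Osmr, 4 bases past the start. No other window of the 10 matched any of the 3 elements. The elements were chosen with the sequences and the expression values already known, and a match is a description of the letters. Between the Lifr stretches, the share of G and C was 82.7% at the first start and 50.8% at the second.

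Positions are those of GRCm38 in GENCODE M21, and counts were taken over the exons of each whole gene. Il6st is at chr13:112464070-112510086 on the plus strand and Il6ra at chr3:89864059-89913196 on the minus strand. Lifr (chr15:7090614-7197489, plus strand) and Osmr (chr15:6813577-6874969, minus strand) are close together, and Csf2rb is farther along the same chromosome at chr15:78325752-78353847. Il4ra is at chr7:125552120-125579474 and Il13ra1 at chrX:36112110-36171259, both on the plus strand. Stat3 (chr11:100885098-100939540) and Socs3 (chr11:117966079-117970047) are both on the minus strand of chromosome 11.

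Csf2ra, the GM-CSF binding chain, rose in both knockouts, for which the group was chosen, and each knockout library lay above every wild-type library. Its normalized counts were 32, 21, 28 and 20 in the wild-type libraries, 66, 61, 59 and 65 in Pkd1-/- and 126, 91, 116 and 85 in Pkd2-/-. The 3 genotypes did not overlap, and wild-type was the lowest. The means were 25.2 ± 5.74 (SD, n = 4), 62.8 ± 3.30 and 104.5 ± 19.6, which is 2.49 and 4.14 times the wild-type mean. On the log2(normalized count + 1) scale the difference from wild-type was 1.30 in Pkd1-/- and 2.01 in Pkd2-/- cells, given without a test since it chose the genes. Between the knockouts, Csf2ra was higher in Pkd2-/- by 0.71 ± 0.18 (SE, limma's moderated test, adjusted p = 0.00376). The choice did not use the direction of this difference, but it used the same libraries. That p-value is therefore not independent of the choice.

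The test here and below was limma's moderated test over the 18552 genes that passed the filter, all 12 libraries in 1 model, with Benjamini-Hochberg adjustment over all of them. A gene passed at an adjusted p under 0.05, and a stricter threshold, as the study used, also asked for a fold change of 1 or more on the log2 scale. The partner of Csf2ra was not detected. Csf2rb, the beta common chain, was at 0 in all 12 libraries, which allows up to 3 counts per library, and its close paralog Csf2rb2 reached at most 2. The ligand gene Csf2 also reached at most 2 normalized counts. These limits cover counting error only.

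**Figure D1:**
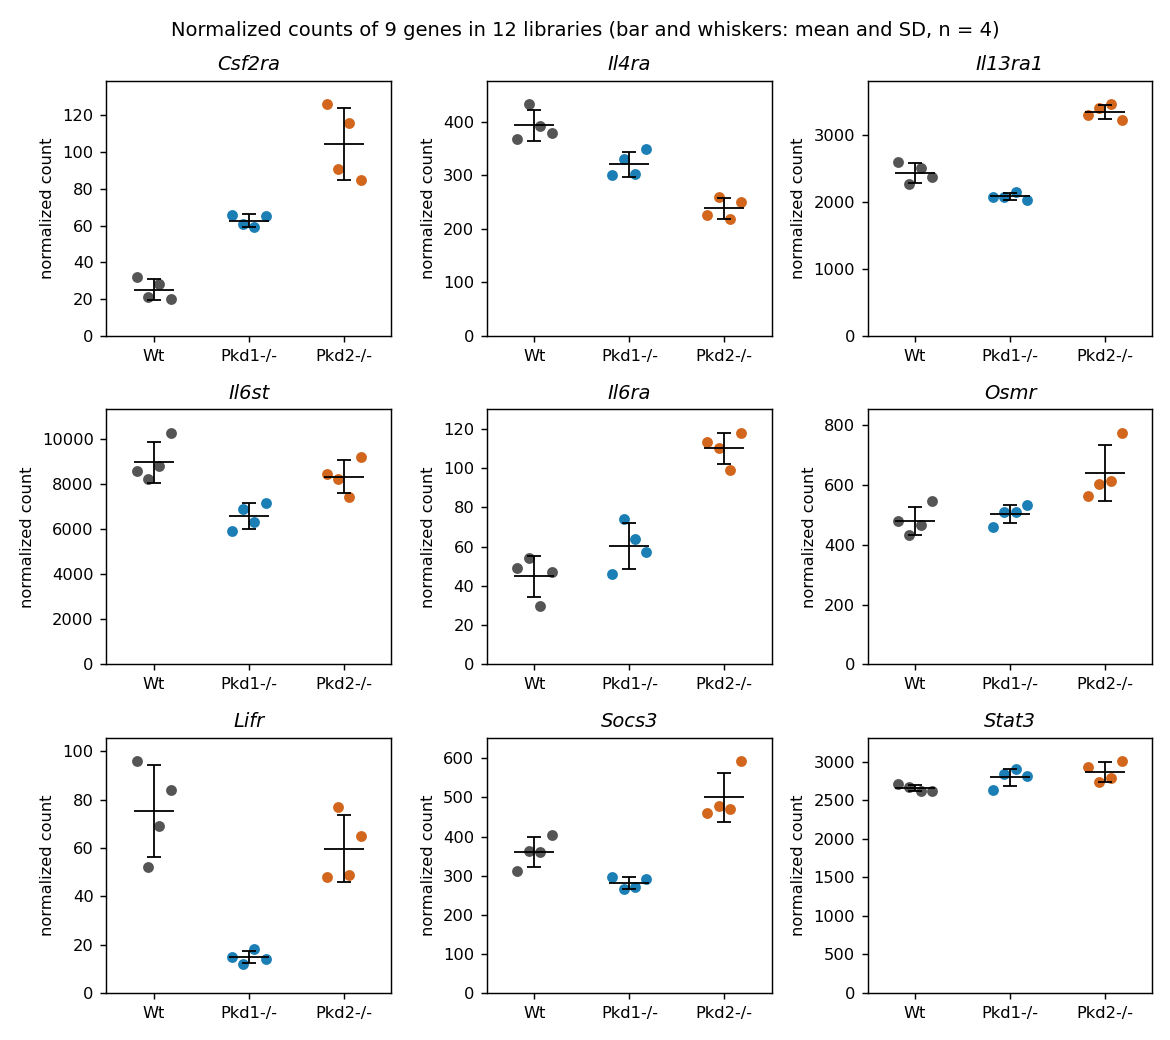
Normalized counts (vertical axis, from 0) of the 9 detected genes in each of 12 libraries, grouped by genotype, with the mean and SD of 4 libraries. Csf2ra climbs from Wt over Pkd1-/- to Pkd2-/-, Il4ra descends in the same order, Lifr drops in Pkd1-/- alone, and Stat3 stays between 2620 and 3007.

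The other alpha chains of the beta common family were low and were ordered differently from Csf2ra. Il3ra, which binds interleukin-3, had 3, 3, 4 and 4 normalized counts in wild-type cells, 17, 19, 18 and 14 in Pkd1-/- and 0, 1, 1 and 5 in Pkd2-/- libraries. The Pkd1-/- libraries were the highest and did not overlap with the rest. An antisense gene, Gm48860, overlaps exons of Il3ra. The log2 fold change was 2.00 ± 0.45 (adjusted p = 0.00235) in Pkd1-/- and −1.01 ± 0.45 (adjusted p = 0.0819) in Pkd2-/- cells, and without library 4 of Pkd2-/- the latter became −1.49 (adjusted p = 0.00632). Il5ra, which binds interleukin-5, had 15, 5, 7 and 6 normalized counts in wild-type cells, 37, 28, 14 and 36 in Pkd1-/- and 0, 1, 5 and 0 in Pkd2-/- cells. Pkd1-/- and wild-type overlapped by 1 library each. Its fold change was 1.71 ± 0.53 (adjusted p = 0.0204) in Pkd1-/- and −2.20 ± 0.53 (adjusted p = 0.00212) in Pkd2-/-. The call in Pkd1-/- was lost without library 2 or 4 of wild-type or library 1 or 4 of Pkd1-/- (adjusted p of 0.0511 to 0.0606). With all libraries kept, it was also lost at a pseudocount of 0.5 (adjusted p = 0.0515) and without limma's variance trend (adjusted p = 0.0581).

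Among the other 9 genes, 8 could be tested. In Pkd1-/- cells 5 of the 8 fell (Il4ra, Il13ra1, Il6st, Lifr and Socs3) and 0 rose, where 13.5% of all tested genes were lower and 13.6% were higher at the same threshold. The median log2 fold change of the 8 was −0.26, against 0.01 for all tested genes. In Pkd2-/- cells 4 rose (Il13ra1, Il6ra, Osmr and Socs3) and 1 fell (Il4ra), beside 20.0% higher and 22.3% lower of all genes, with medians of 0.26 and −0.01. Past the fold threshold as well, Lifr alone fell in Pkd1-/- cells and 0 rose, beside 3.28% of all genes lower and 2.96% higher. Il6ra alone rose in Pkd2-/- cells and 0 fell, beside 3.24% higher and 6.38% lower. Both comparisons use the same wild-type libraries.

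The knockouts differed from each other in 7 of the 8. Il13ra1, Il6st, Il6ra, Osmr, Lifr and Socs3 were higher in Pkd2-/- than in Pkd1-/- cells and Il4ra was lower, beside 21.9% of all genes higher and 24.3% lower. The median difference was 0.51, against −0.01 over all genes. Lifr alone passed the fold threshold, beside 4.53% of all genes higher and 7.23% lower. The list was made with earlier results of these data known, so the counts describe these genes.

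**Figure D2:**
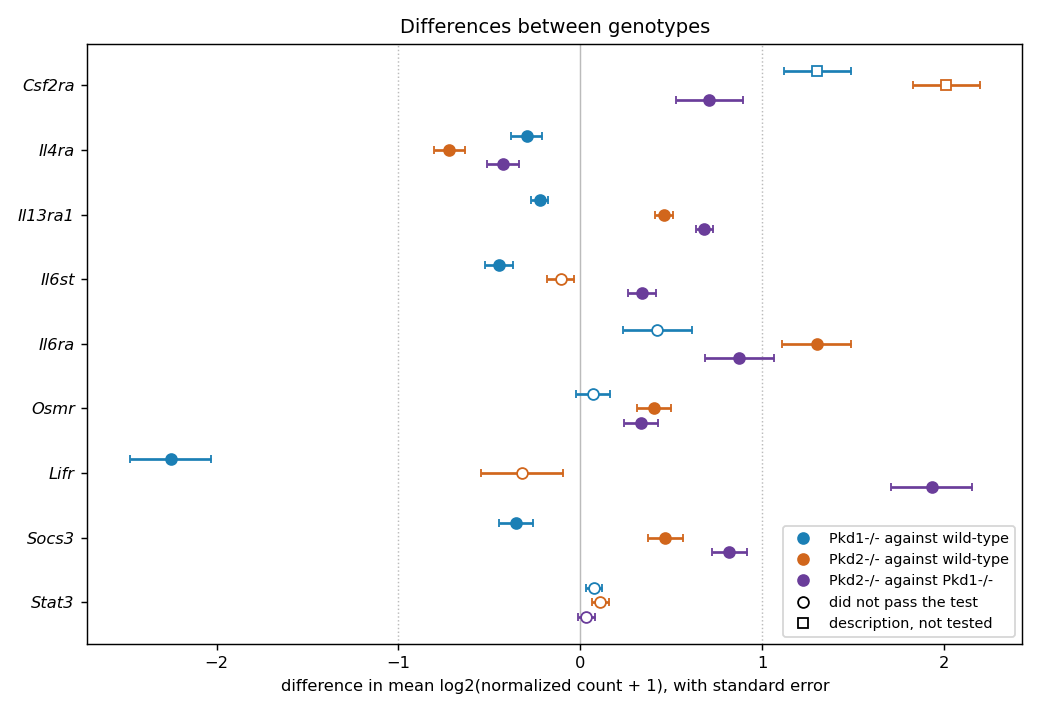
Difference in mean log2(normalized count + 1) of 9 genes in 3 comparisons, with standard errors; filled circles passed the test, open circles did not, open squares are the untested values of Csf2ra, and dotted lines mark a log2 fold change of 1. Lifr lies at −2.25 in Pkd1-/- and Il6ra at 1.30 in Pkd2-/- cells, and the 3 values of Stat3 lie between 0.03 and 0.11.

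Lifr, the LIF binding chain that pairs with gp130, was the member that changed most. Its normalized counts were 96, 52, 69 and 84 in wild-type cells, 15, 12, 18 and 14 in Pkd1-/- and 48, 77, 49 and 65 in Pkd2-/- libraries. All 4 Pkd1-/- libraries lay far below the other 8, and wild-type and Pkd2-/- overlapped. Against wild-type the log2 fold change was −2.25 ± 0.22 (adjusted p = 3e-07) in Pkd1-/- and −0.32 ± 0.22 (adjusted p = 0.281) in Pkd2-/- cells. The level in Pkd2-/- was 1.93 ± 0.22 above that in Pkd1-/- (adjusted p = 8.11e-07).

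Osmr, the oncostatin M binding chain, lies 216 kb from Lifr on chromosome 15 and did not share its drop. It was at 480, 432, 465 and 545 normalized counts in wild-type cells, 458, 511, 511 and 532 in Pkd1-/- and 562, 605, 615 and 775 in Pkd2-/- cells. The Pkd2-/- libraries were all above the others, and wild-type and Pkd1-/- overlapped. The fold change was 0.07 ± 0.09 (adjusted p = 0.657) in Pkd1-/- and 0.41 ± 0.09 (adjusted p = 0.00163) in Pkd2-/- cells, and 0.34 ± 0.09 (adjusted p = 0.00607) between the knockouts. Of 8 tested genes within 1 Mb of Lifr, 2 were higher and 1 was lower in Pkd1-/- cells, with a median log2 fold change of 0.05. Among all tested genes, 13.6% were higher and 13.5% lower there.

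Il6st, which encodes gp130, had the highest counts of the group. The libraries held 8599, 8220, 8803 and 10292 normalized counts in wild-type cells, 5933, 6907, 6314 and 7182 in Pkd1-/- and 8465, 8245, 7417 and 9202 in Pkd2-/- cells. Every Pkd1-/- library was below every other library. The fold change was −0.45 ± 0.07 (adjusted p = 0.000152) in Pkd1-/- and −0.11 ± 0.07 (adjusted p = 0.281) in Pkd2-/- cells, and Pkd2-/- was higher than Pkd1-/- by 0.34 ± 0.07 (adjusted p = 0.000961).

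Il6ra, the interleukin-6 binding chain, rose in Pkd2-/- cells. It was at 49, 54, 30 and 47 normalized counts in wild-type cells, 46, 74, 64 and 57 in Pkd1-/- and 113, 110, 99 and 118 in Pkd2-/- libraries. The Pkd2-/- libraries stood above all others, while wild-type and Pkd1-/- overlapped. The fold change was 1.30 ± 0.19 (adjusted p = 1.56e-05) in Pkd2-/- and 0.42 ± 0.19 (adjusted p = 0.109) in Pkd1-/- cells. Without library 1 of Pkd1-/-, the latter was 0.55 with an adjusted p of 0.0457. Pkd2-/- exceeded Pkd1-/- by 0.88 ± 0.19 (adjusted p = 0.000768). An antisense gene, Gm42809, overlaps exons of Il6ra at a mean of 2.83 normalized counts, and whether the counting used strand is not given in the sources used here. Of 79 tested genes within 1 Mb of Il6ra, 12 were higher and 27 were lower in Pkd2-/- cells, beside 20.0% and 22.3% of all tested genes. The median log2 fold change of the 79 was −0.08. Past the fold threshold none of them was higher and 2 were lower, beside 3.24% and 6.38% of all tested genes.

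The chains of the type II interleukin-4 receptor went separate ways in Pkd2-/- cells. Il4ra, the chain that binds interleukin-4, was at 368, 433, 393 and 379 normalized counts in wild-type cells, 300, 331, 302 and 349 in Pkd1-/- and 226, 260, 218 and 250 in Pkd2-/- libraries. The genotypes did not overlap, with wild-type highest and Pkd2-/- lowest. It fell by 0.29 ± 0.09 (adjusted p = 0.0157) on the log2 scale in Pkd1-/- and by 0.72 ± 0.09 (adjusted p = 1.68e-06) in Pkd2-/- cells, and the knockouts differed by −0.43 ± 0.09 (adjusted p = 0.000461). The call in Pkd1-/- was lost without library 2 of wild-type (−0.25, adjusted p = 0.0583) or library 3 of Pkd1-/- (−0.27, adjusted p = 0.0519).

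Il13ra1, which binds interleukin-13, was at 2603, 2269, 2507 and 2368 normalized counts in wild-type cells, 2081, 2078, 2152 and 2025 in Pkd1-/- and 3296, 3408, 3459 and 3227 in Pkd2-/- cells. Pkd1-/- was lowest and Pkd2-/- highest, with no overlap. The fold change was −0.22 ± 0.05 (adjusted p = 0.00181) in Pkd1-/- and 0.46 ± 0.05 (adjusted p = 3.57e-07) in Pkd2-/- cells, and the knockouts differed by 0.68 ± 0.05 (adjusted p = 1.18e-09). The other chains that bind these ligands were nearly absent: Il2rg and Il13ra2 each reached at most 2 normalized counts. Il4 was listed at 44 to 85 normalized counts and Il13 at 0 in all libraries.

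Socs3, the inhibitor that acts on gp130, followed opposite directions in the knockouts. It was at 313, 364, 361 and 405 normalized counts in wild-type cells, 297, 266, 271 and 292 in Pkd1-/- and 460, 478, 470 and 593 in Pkd2-/- libraries. None of the genotypes overlapped. The fold change was −0.35 ± 0.09 (adjusted p = 0.00823) in Pkd1-/- and 0.47 ± 0.09 (adjusted p = 0.000465) in Pkd2-/- cells, and the difference between the knockouts, 0.82 ± 0.09 (adjusted p = 6.94e-07), was tested directly. Without library 4 of Pkd2-/-, which stood above its group, the fold change in Pkd2-/- cells was 0.38 (adjusted p = 0.00182).

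Stat3 itself varied little. Its normalized counts were 2704, 2671, 2620 and 2623 in wild-type cells, 2639, 2839, 2901 and 2817 in Pkd1-/- and 2934, 2739, 2788 and 3007 in Pkd2-/- cells. The Pkd2-/- libraries lay just above the wild-type ones, and Pkd1-/- overlapped with both. The fold change was 0.08 ± 0.05 (adjusted p = 0.256) in Pkd1-/- and 0.11 ± 0.05 (adjusted p = 0.0629) in Pkd2-/- cells, and the knockouts differed by 0.03 ± 0.05 (adjusted p = 0.583). The value in Pkd2-/- cells passed the test without library 1 of Pkd1-/- (adjusted p = 0.0494), without library 2 of Pkd2-/- (adjusted p = 0.0442) and among genes with a mean of at least 10 (adjusted p = 0.046). Exons of Stat3 overlap those of Stat5a on the other strand, so reads there may be assigned to either gene.

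Levels of different genes were compared per kilobase of exon. In wild-type cells the order was Il6st (809 ± 81.8 normalized counts per kb, SD), Il13ra1 (656 ± 39.8), Stat3 (279 ± 4.24), Socs3 (125 ± 13.0), Il4ra (65.5 ± 4.73), Osmr (39.7 ± 3.92), Csf2ra (8.79 ± 2.00), Lifr (6.98 ± 1.77) and Il6ra (5.21 ± 1.21). Libraries of Csf2ra and Lifr overlapped in this measure, as did those of Lifr and Il6ra. The other neighbours in the order did not overlap. The ligand binding chains Osmr, Lifr and Il6ra were all low beside gp130 in wild-type cells.

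The order changed in the knockouts. In Pkd1-/- cells Il6st (593 ± 50.9 per kb) and Il13ra1 (561 ± 14.0) overlapped, and Lifr (1.37 ± 0.23) became the lowest of the detected genes, below Il6ra (6.97 ± 1.36). In Pkd2-/- cells Il13ra1 (902 ± 28.4) exceeded Il6st (751 ± 66.2). Csf2ra (36.4 ± 6.84) overlapped there with Il4ra (39.7 ± 3.29), and Il6ra (12.7 ± 0.93) lay above Lifr (5.54 ± 1.29).

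**Figure D3:**
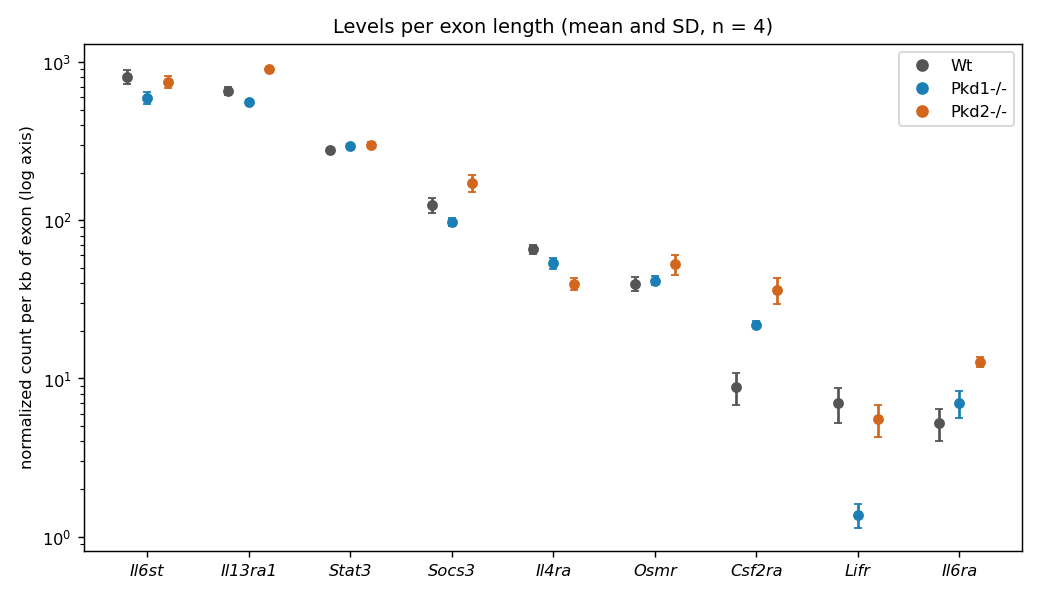
Normalized counts per kb of exon (logarithmic vertical axis) of 9 genes ordered by their wild-type level, as the mean and SD of 4 libraries per genotype. Il6st at 809 and Il13ra1 at 656 lead in Wt cells, and Csf2ra, Lifr and Il6ra are the lowest, with Lifr at 1.37 in Pkd1-/- cells.

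Ratios of chains were computed within each library, where the size factor cancels, for 3 pairs that form a receptor together and for Osmr to Lifr, which sit in different receptors and share gp130 as a partner. There were 12 tests (4 ratios in 3 comparisons), and the smallest p that an exact permutation of 4 against 4 libraries allows is 0.0286. The log2 ratio of Lifr to Il6st was −6.93 ± 0.34 (SD) in wild-type cells, −8.81 ± 0.33 in Pkd1-/- and −7.15 ± 0.30 in Pkd2-/- cells. Per kb of exon, Lifr amounted to 0.00862 of gp130 in wild-type and 0.00233 in Pkd1-/- cells. The ratio in Pkd1-/- was lower than in wild-type by 1.88 and lower than in Pkd2-/- by 1.67 (two-sided exact permutation test, p = 0.0286 for each, adjusted p = 0.0429), and that in Pkd2-/- differed from wild-type by −0.22 (exact p = 0.4).

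The log2 ratio of Osmr to Il6st was −4.22 ± 0.04 (SD) in wild-type cells, −3.71 ± 0.06 in Pkd1-/- and −3.71 ± 0.16 in Pkd2-/- cells. Both knockouts exceeded wild-type, by 0.52 and 0.51 (exact permutation p = 0.0286, adjusted p = 0.0429), with no overlap. The chain that moved was not the same: Il6st fell in Pkd1-/- cells, and Osmr rose in Pkd2-/- cells. The ratio of Osmr to Lifr was highest in Pkd1-/- cells, at 5.10 ± 0.27 beside 2.71 ± 0.30 in wild-type and 3.44 ± 0.31 in Pkd2-/-. Pkd2-/- and wild-type differed by 0.73 there (exact p = 0.0571, adjusted p = 0.0762).

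For Il13ra1 to Il4ra, the log2 ratio was 2.63 ± 0.18 (SD) in wild-type cells, 2.70 ± 0.14 in Pkd1-/- and 3.81 ± 0.14 in Pkd2-/- cells. Pkd2-/- exceeded wild-type by 1.18 and Pkd1-/- by 1.11 (exact permutation p = 0.0286 for each, adjusted p = 0.0429). Per kb of exon, Il13ra1 was 10.1 times Il4ra in wild-type cells, 10.6 times in Pkd1-/- and 22.8 times in Pkd2-/- cells. Pkd1-/- and wild-type differed by 0.07 (exact p = 0.571).

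**Figure D4:**
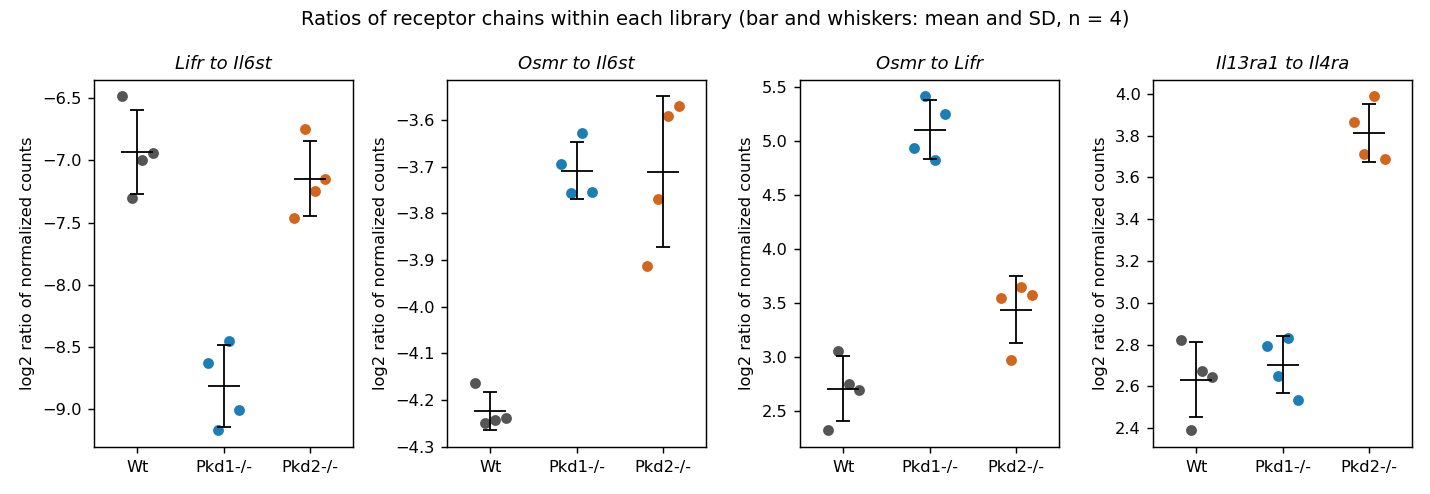
Log2 ratios of normalized counts of receptor chains in each library, with the mean and SD of 4 libraries; each panel has its own axis, which does not start at 0. Lifr to Il6st is lowest in Pkd1-/- at −8.81, Osmr to Il6st is higher in both knockouts at −3.71, and Il13ra1 to Il4ra is highest in Pkd2-/- at 3.81.

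The wider pathway was read from 12 lists of 118 genes, including these 10. Of the 108 others, 77 could be tested. In Pkd1-/- cells 14 of them were higher and 22 lower, beside 13.6% and 13.5% of all tested genes. In Pkd2-/- cells 29 were higher and 20 lower, beside 20.0% and 22.3%, and between the knockouts 35 were higher and 17 lower in Pkd2-/-, beside 21.9% and 24.3%. The counts of higher genes in Pkd1-/- and of lower genes in Pkd2-/- are near the shares of all genes. Both thresholds were passed by 11, 13 and 17 of the 77, where in all genes 2.96% were higher and 3.28% lower in Pkd1-/- cells, 3.24% and 6.38% in Pkd2-/- cells, and 4.53% and 7.23% between the knockouts. The genes named from here on as changed passed both in 1 comparison or more, except those said to be chosen after their values were seen.

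Ligands of the gp130 family were partly detected, with 6 of 9 tested. Il6 and Osm, which encode the ligands of Il6ra and Osmr, reached at most 1 normalized count. Clcf1, a ligand that signals through gp130 and Lifr with Cntfr, was at 368, 383, 383 and 438 normalized counts in wild-type cells, 262, 276, 290 and 401 in Pkd1-/- and 616, 566, 656 and 624 in Pkd2-/- cells. Pkd2-/- lay above the rest, by 0.65 ± 0.11 over wild-type (adjusted p = 7.49e-05). Its fold change in Pkd1-/- was −0.37 ± 0.11 (adjusted p = 0.0145), lost without library 4 of wild-type or library 1 or 2 of Pkd1-/- (adjusted p of 0.052 to 0.0539). That call was also lost with all libraries but without limma's variance trend (adjusted p = 0.0524). Lif, named after its value was seen as the ligand of Lifr, was at 198 to 255 normalized counts in wild-type cells, 210 to 294 in Pkd1-/- and 358 to 544 in Pkd2-/- cells, with a fold change of 0.89 ± 0.13 (adjusted p = 1.64e-05) in Pkd2-/-. In all, 3 of the 6 ligands rose and 1 fell in Pkd2-/- cells (20.0% and 22.3% of all genes), and 0 rose and 1 fell in Pkd1-/- cells (13.6% and 13.5%), so the counts of lower ligands are near those shares.

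Of 11 receptors of the gp130 family, 6 were tested. Cntfr, Lepr, Il27ra, Csf3r and Il31ra reached at most 2 normalized counts.

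Of 14 other receptors that couple to Janus kinases, 6 were tested. In Pkd1-/- cells 0 rose and 2 fell, beside 13.6% and 13.5% of all genes, and in Pkd2-/- cells 2 rose and 2 fell, beside 20.0% and 22.3%. Ghr, the growth hormone receptor, fell by 1.04 ± 0.07 (adjusted p = 2.83e-10) in Pkd2-/- and by 0.31 ± 0.07 (adjusted p = 0.00143) in Pkd1-/- cells, from 1431 to 1572 normalized counts in wild-type to 653 to 797 and 1126 to 1322. Epor, the erythropoietin receptor, fell by 1.09 ± 0.11 (adjusted p = 5.44e-07) in Pkd1-/- cells, with 173 to 198 normalized counts in wild-type and 83 to 92 in Pkd1-/-. In Pkd2-/- cells it was at 129 to 170 and its change of −0.31 (adjusted p = 0.0328) was lost without library 2, 3 or 4 of wild-type or library 1 or 4 of Pkd2-/- (adjusted p of 0.0531 to 0.117). Il15ra was at 12 to 16, 7 to 15 and 14 to 32 normalized counts and differed between the knockouts by 1.01 ± 0.31 (adjusted p = 0.0125, and 0.0518 without library 3 of Pkd2-/-). Against wild-type, Il15ra in Pkd2-/- cells passed only without library 4 of Pkd2-/- (0.85, adjusted p = 0.0443). Il9r was at most 14 and its rise of 1.58 ± 0.57 in Pkd2-/- cells (adjusted p = 0.0321) was lost without library 2 of wild-type or library 1, 2 or 3 of Pkd2-/- (adjusted p of 0.0606 to 0.129). That rise was also lost without the filter on low values (adjusted p = 0.0514) and without limma's variance trend (adjusted p = 0.0723).

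All 4 Janus kinases were detected. In Pkd2-/- cells 3 of them rose and 0 fell, where 20.0% of all genes rose and 22.3% fell, and in Pkd1-/- cells 0 rose and 1 fell, where 13.6% rose and 13.5% fell. Chosen after its value was seen, Jak1, which binds gp130 and Il4ra, was at 2829 to 3236 normalized counts in wild-type cells, 2834 to 3069 in Pkd1-/- and 4329 to 5186 in Pkd2-/- cells. Its fold change was 0.70 ± 0.06 (adjusted p = 1.11e-08) in Pkd2-/- and 0.02 ± 0.06 (adjusted p = 0.834) in Pkd1-/-. Stat6, which transmits the interleukin-4 signal and was also chosen after its value was seen, was at 2747 to 2849 normalized counts in wild-type cells, 2618 to 2896 in Pkd1-/- and 2491 to 2747 in Pkd2-/- cells and did not pass in any comparison (adjusted p = 0.867, 0.0826 and 0.129).

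Inhibitors of the pathway moved in both directions. Of 8 SOCS genes, 1 rose and 2 fell in Pkd1-/- cells (13.6% and 13.5% of all genes) and 2 rose and 2 fell in Pkd2-/- cells (20.0% and 22.3%), which is near the shares of all genes. Between the knockouts 4 were higher and 1 lower in Pkd2-/- (21.9% and 24.3% of all genes), and 3 did not pass. Socs2, an inhibitor of growth hormone signalling, was at 205, 180, 189 and 188 normalized counts in wild-type cells, 86, 97, 80 and 101 in Pkd1-/- and 159, 227, 234 and 193 in Pkd2-/- cells. Pkd1-/- alone stood apart, with a fold change of −1.06 ± 0.13 (adjusted p = 3.05e-06). Among 11 other negative regulators, 3 rose and 2 fell in Pkd1-/- cells, 6 rose and 1 fell in Pkd2-/- cells, and 5 were higher and 2 lower in Pkd2-/- than in Pkd1-/-, beside the same shares of all genes. Usp18, which restrains the type I interferon receptor, was at 242, 308, 322 and 341 normalized counts in wild-type cells, 85, 74, 56 and 68 in Pkd1-/- and 772, 814, 777 and 622 in Pkd2-/- libraries. The genotypes were fully separate, with fold changes of −2.09 ± 0.13 (adjusted p = 5.11e-10) and 1.30 ± 0.13 (adjusted p = 1.57e-07). Ptprj, a receptor tyrosine phosphatase, was at 653 to 918, 739 to 1017 and 2169 to 2753 normalized counts and rose by 1.67 ± 0.10 (adjusted p = 1.63e-10) in Pkd2-/- cells. In Pkd1-/- cells its 0.19 (adjusted p = 0.184) became 0.28 (adjusted p = 0.0405) without library 1 of Pkd1-/-.

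The list of genes known as STAT3 targets holds 25 genes, of which 23 were tested; Socs3, Stat3, Osmr and Il4ra are among them, and most of the others are also induced by other pathways. Of the 23, 4 rose and 9 fell in Pkd1-/- cells, beside 13.6% and 13.5% of all genes. The same list had 12 genes that rose and 6 that fell in Pkd2-/- cells, beside 20.0% and 22.3%, and 12 were higher and 4 lower in Pkd2-/- than in Pkd1-/-, beside 21.9% and 24.3%. The 4 that rose in Pkd1-/- and the 6 that fell in Pkd2-/- cells are near the shares of all genes. The medians were −0.14, 0.26 and 0.34, beside 0.01, −0.01 and −0.01 for all tested genes. Lcn2, a secreted lipocalin known as a marker of tubular injury, was at 2862, 2954, 2893 and 2616 normalized counts in wild-type cells, 710, 558, 643 and 558 in Pkd1-/- and 5249, 5164, 4753 and 4334 in Pkd2-/- libraries. It had the same order of genotypes as Socs3, with fold changes of −2.20 ± 0.08 (adjusted p = 1.57e-13) and 0.78 ± 0.08 (adjusted p = 1.15e-07). Pim1, a survival kinase, was at 1000 to 1176, 821 to 928 and 2548 to 3127 normalized counts and rose by 1.38 ± 0.07 (adjusted p = 5.36e-12) in Pkd2-/- cells.

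The transcription factors Cebpb, Fos and Junb of that list rose in Pkd2-/- cells without passing the test in Pkd1-/-. Cebpb was at 739 to 885 normalized counts in wild-type cells, 788 to 890 in Pkd1-/- and 1894 to 2341 in Pkd2-/- cells (log2 fold change 1.43 ± 0.07, adjusted p = 1.18e-11, in Pkd2-/-). Fos was at 4362 to 9992, 5078 to 8426 and 14151 to 32232 (1.49 ± 0.23, adjusted p = 3.5e-05). Junb was at 8652 to 11909, 8174 to 10720 and 19087 to 26105 (1.04 ± 0.11, adjusted p = 2.16e-07). Its change of −0.20 in Pkd1-/- cells passed without library 1 of wild-type (adjusted p = 0.0243). With all libraries, it also passed when the replicate number was added to the model as a block (adjusted p = 0.00665). Exons of Cebpb and Junb overlap those of Tmem189 and Prdx2 on the other strand.

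Bcl3 and Tgm2 fell. Bcl3, an IkappaB-like nuclear cofactor, was at 106 to 129 normalized counts in wild-type cells, 41 to 57 in Pkd1-/- and 79 to 108 in Pkd2-/- cells, with a fold change of −1.28 ± 0.15 (adjusted p = 2.53e-06) in Pkd1-/-. Tgm2, a transglutaminase, was at 105 to 131 normalized counts in wild-type and lower in both knockouts, at 48 to 68 and 42 to 64, with fold changes of −0.97 ± 0.16 (adjusted p = 0.00013) and −1.13 ± 0.16 (adjusted p = 1.2e-05). Its exons overlap those of Rprd1b on the other strand.

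Of 14 genes listed as STAT5 or STAT6 targets, 9 were tested. In either knockout 2 rose and 3 fell, where 13.6% of all genes rose and 13.5% fell in Pkd1-/- and 20.0% rose and 22.3% fell in Pkd2-/- cells. Gata3, a transcription factor that is also a collecting duct marker, was at 248, 176, 236 and 247 normalized counts in wild-type cells, 56, 48, 48 and 42 in Pkd1-/- and 327, 366, 294 and 430 in Pkd2-/- libraries. The genotypes were separate, with fold changes of −2.20 ± 0.14 (adjusted p = 6.34e-10) and 0.64 ± 0.14 (adjusted p = 0.000968). Postn, a matricellular protein gene that interleukin-13 induces in other tissues, ran the other way. It was at 81, 74, 24 and 43 normalized counts in wild-type cells, 311, 286, 295 and 294 in Pkd1-/- and 3, 0, 22 and 1 in Pkd2-/- libraries. Its fold changes were 2.54 ± 0.63 (adjusted p = 0.00478) and −3.79 ± 0.63 (adjusted p = 7.04e-05), the latter −4.67 without library 3 of Pkd2-/-. Ccnd2, a cyclin, was at 9 to 19, 52 to 61 and 0 to 3 normalized counts, and the Pkd2-/- level was at the limit of detection.

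**Figure D5:**
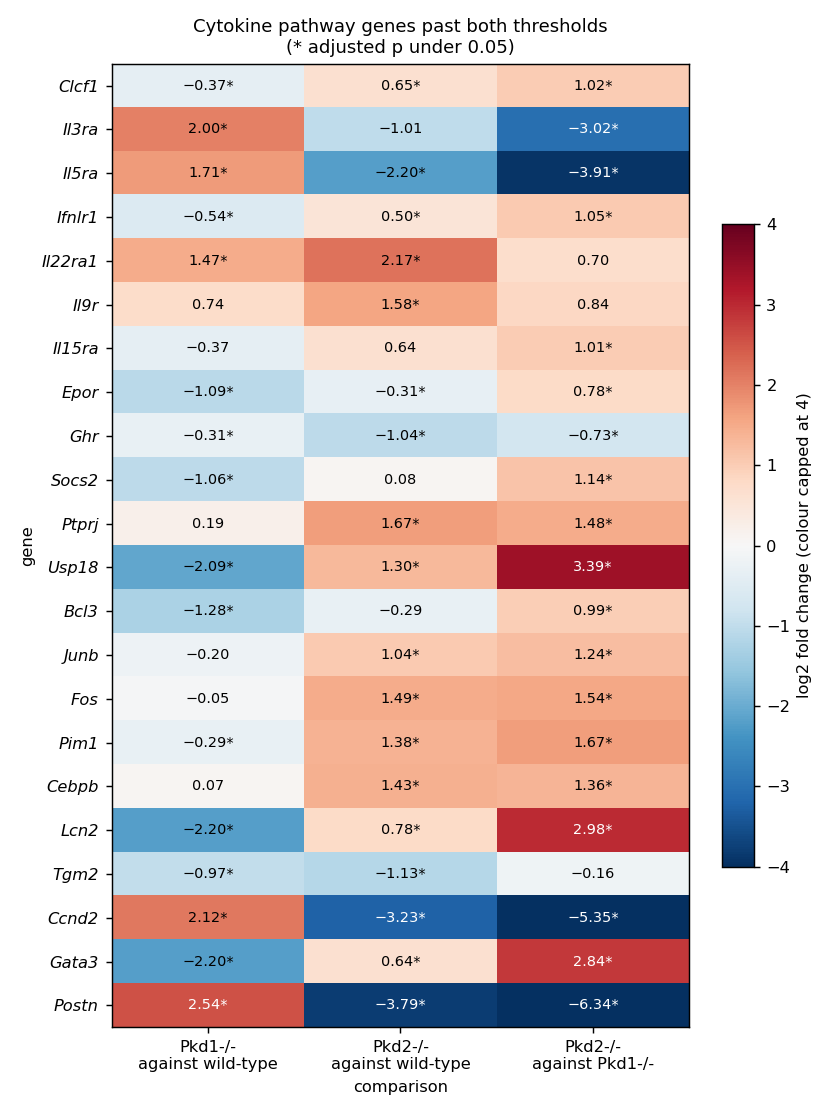
Log2 fold changes (numbers and colour, capped at 4) of 22 cytokine pathway genes outside the group that passed an adjusted p under 0.05 and a fold change of at least 1 in at least 1 of 3 comparisons; asterisks mark an adjusted p under 0.05. Usp18, Lcn2 and Gata3 are lower in Pkd1-/- and higher in Pkd2-/- cells, and Il5ra, Ccnd2 and Postn the reverse; the values of Ccnd2 in Pkd2-/- rest on counts of at most 3 and depend on the pseudocount.

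The genes whose pattern over the 12 libraries was most like that of Csf2ra, among genes that averaged 10 normalized counts or more, are given as a description. Pearson correlations of log2(normalized count + 1) were 0.977 for Rbbp9 (a serine hydrolase), 0.975 for Mt2 (a metallothionein), 0.975 for Nbl1 (a BMP antagonist), 0.974 for Psmd1 (a proteasome subunit) and 0.973 for Ppp2r5b (a phosphatase 2A subunit). The points share libraries and fall into 3 genotypes. Mt2 had group means of 150.8, 759 and 1781 normalized counts for wild-type, Pkd1-/- and Pkd2-/-. Nbl1 had means of 62.5, 247.8 and 647.8. Rbbp9 went from 771.5 over 1263 to 1652.

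Csf2ra lies near the end of chromosome 19, at chr19:61223957-61228429 on the minus strand of GRCm38. Of 12 tested genes within 1 Mb of it, 4 were higher and 0 lower in Pkd1-/- cells, beside 13.6% and 13.5% of all tested genes. In Pkd2-/- cells 7 of the 12 were higher and 0 lower, beside 20.0% and 22.3%. The median log2 fold change of the 12 was 0.17 in Pkd1-/- and 0.40 in Pkd2-/- cells, and none of the 12 passed the fold threshold. Past that threshold, 2.96% of all tested genes were higher and 3.28% lower in Pkd1-/- cells, and 3.24% and 6.38% in Pkd2-/- cells. The values of Csf2ra were above the highest neighbour in each knockout, which was at 0.36 in Pkd1-/- and 0.82 in Pkd2-/- cells. This is a description only, since Csf2ra was chosen for its rise and its neighbours were not.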

How the data were processed

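RNA of 12 mIMCD3 libraries was sequenced, 4 per genotype. Per the labels and the study's methods, the authors used Trim Galore, HISAT2, HTSeq and DESeq2, and the processing notes name mm10 and mm9. The deposited score values are counts that the authors divided by size factors and rounded, so count models were not used. GENCODE M21 (GRCm38) gave symbols for 47223 of 47642 identifiers.

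Differences were tested on log2(normalized count + 1), which understates fold changes of low genes, with limma 3.58.1 in R 4.3.3 (lmFit, eBayes with a variance trend), two-sided. A gene entered if it averaged 1 normalized count or more, which 18552 did. The limma fit was tested on simulated counts, with changes larger than most of those given here. No simulation was run for the other steps. Chain ratios used exact permutation tests (scipy 1.17.1). Levels per kb used the union of GENCODE exons. Members and lists were chosen with earlier results of these data known. Beside the members, the rule for naming took list genes past both thresholds in any comparison (26, with 3 members among them; 1 is not reported here) and the 5 genes most like Csf2ra. For members past both thresholds, tested genes within 1 Mb were counted. P-values measure the spread between dishes of 1 line or clone.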

Additional observations from a re-analysis of the deposited data

Results flagged for a closer look

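In 6 of 93 groups of 4 libraries, 1 library stood apart from the other 3 by Dixon's criterion, which chance meets in about 1 of 20 groups. For Socs3 it was the highest Pkd2-/- library, at 593 normalized counts. For Ifnlr1 it was the lowest Pkd1-/- library at 306, for Junb the lowest wild-type library at 8652, and for Gata3 the lowest wild-type library at 176. For Postn the highest Pkd2-/- library was at 22, and for Ccnd2 at 3. Without these libraries, the log2 fold change of Gata3 in Pkd2-/- cells was 0.52 (adjusted p = 0.00478), and that of Postn in Pkd2-/- cells was −4.67. That of Socs3 in Pkd2-/- cells was 0.38, that of Junb 0.93 and that of Ifnlr1 in Pkd1-/- cells −0.51.

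The members and the 22 plotted list genes were also compared between the knockouts. For 17 of them, the difference between Pkd2-/- and Pkd1-/- cells itself passed both thresholds by limma's test. The 22 were named for passing both thresholds in some comparison, this one included, so the count was favoured in advance. It is not comparable with the 4.53% of all tested genes that were higher and the 7.23% that were lower. Lifr, higher in Pkd2-/- by 1.93 on the log2 scale, was the only member. Usp18 (3.39), Lcn2 (2.98), Gata3 (2.84), Pim1 (1.67), Fos (1.54), Ptprj (1.48), Cebpb (1.36), Junb (1.24), Socs2 (1.14), Ifnlr1 (1.05), Clcf1 (1.02) and Il15ra (1.01) were also higher in Pkd2-/-. The difference was −3.02 for Il3ra, −3.91 for Il5ra, −5.35 for Ccnd2 and −6.34 for Postn. The last 2 depend on the pseudocount, since the Pkd2-/- libraries were at or near 0.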

How the results depend on the processing

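Refits changed the pseudocount (0.5 and 5), the filter (none, or an average of 10), the scaling (upper quartile), the variance trend (none), the libraries in the model (the compared genotypes alone, or each library left out) and the block. Calls of members outside the comparison that chose them stayed the same in 494 of 500 refits. In the other 6, 2 were lost (Il4ra) and 4 were gained (Il6ra and Stat3), as given beside those genes. With a log2 fold change of at least 1 also required, the members called dropped from 5, 5 and 7 to 1 in each comparison. Leaving out single libraries gave 4 to 6 in Pkd1-/- against wild-type, 5 to 6 in Pkd2-/- against wild-type and 7 in Pkd2-/- against Pkd1-/-. For other list genes, 1346 refits kept the call, 23 lost it and 5 gained it. No call reversed its direction.

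Same-numbered libraries deviated together weakly at most (r of −0.073 to 0.2, and 9 of 24 comparisons best with the own number). The 2 of 12 pairs over 0.1 were both of number 4, Pkd2-/- with wild-type (0.20) and with Pkd1-/- (0.17). The main tests treated the samples as unpaired, and a shared deviation of number 4 was not tested. With the replicate block, 5, 5 and 7 members passed as before. For chain ratios the paired sign-flip test of 4 pairs cannot reach the threshold, and 0 of the 8 ratios that passed did so. With a pseudocount of 1, 8 passed. Leave-one-out differences of ratios had no test and stayed between −2.01 and −1.74 for Lifr to Il6st in Pkd1-/- cells. Chains with under 20 counts, such as Lifr in Pkd1-/-, are limited by depth.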

Other observations

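Receptors for interferons and interleukin-10 family cytokines pair class II chains on Janus kinases. Of 10 listed genes 8 were tested. In Pkd1-/- cells 6 fell, 1 rose (Il22ra1) and 1 did not pass (Il20rb), where 13.5% of all tested genes fell and 13.6% rose. In Pkd2-/- cells 2 fell and 2 rose, near the 22.3% and 20.0% of all genes. Of the 6 that fell in Pkd1-/- cells, at least Ifnar2 and Il10rb lie close together, since Gm21970 overlaps exons of both. Positions of the others are not given here, and more of the 6 may be neighbours. Whether such neighbours moved together was not tested, so the 6 may not be separate observations. Ifnar1, a chain of the type I interferon receptor, was at 3493, 3654, 3593 and 3716 normalized counts in wild-type, 2199, 2371, 2293 and 2411 in Pkd1-/- and 3621, 3605, 3479 and 3904 in Pkd2-/- libraries. All Pkd1-/- libraries were below the others, by 0.64 ± 0.05 on the log2 scale against wild-type (SE, adjusted p = 5.24e-09, limma). Il10rb, the chain shared by receptors for interleukin-10, interleukin-22 and lambda interferons, was at 1594 to 1886 normalized counts in wild-type, 1025 to 1129 in Pkd1-/- and 1755 to 1916 in Pkd2-/- cells, with a log2 fold change of −0.67 ± 0.06 (adjusted p = 6.5e-08) in Pkd1-/-. These were named after their values were seen.

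Ifnlr1, which pairs with Il10rb for lambda interferons, was at 443 to 537 normalized counts in wild-type, 306 to 338 in Pkd1-/- and 585 to 782 in Pkd2-/- cells. The genotypes did not overlap, and the log2 fold changes were −0.54 ± 0.09 (adjusted p = 8.53e-05) and 0.50 ± 0.09 (adjusted p = 0.000107). Il22ra1, its counterpart for interleukin-22, was at 3, 1, 7 and 8 normalized counts in wild-type, 11, 8, 20 and 14 in Pkd1-/- and 17, 21, 29 and 19 in Pkd2-/- libraries, and rose by 1.47 ± 0.43 (adjusted p = 0.0143, and 0.056 without library 3 of Pkd1-/-) and by 2.17 ± 0.43 (adjusted p = 0.000376). Ifngr1, a chain of the interferon gamma receptor chosen after its value was seen, fell in both knockouts. It was at 2687 to 2901 normalized counts in wild-type, 2049 to 2130 in Pkd1-/- and 1380 to 1499 in Pkd2-/- cells. The log2 fold changes were −0.43 ± 0.05 (adjusted p = 6.99e-07) and −0.98 ± 0.05 (adjusted p = 3.29e-12).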
